A study of Mus musculus with 2 samples.

Results

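The semaphorins, with their receptors the plexins and neuropilins, were described in mouse sciatic nerve at postnatal day 7. Members were taken by name, as every gene entry whose symbol begins with Sema and a digit or with Plxn, together with Nrp1 and Nrp2. This gave 31 genes of 22093, made up of 20 semaphorins, 9 plexins and 2 neuropilins. There was 1 RNA-seq library from Tsc1cKO nerve, a conditional knockout of Tsc1, and 1 from control nerve, both on a mixed strain background. The naming of the deposited tables adds that both genotypes carried Dhh-Cre, with both Tsc1 alleles conditional in Tsc1cKO and 1 conditional allele in the control, which is therefore read here as heterozygous in the recombined cells. Dhh-Cre uses regulatory sequence of desert hedgehog, a gene of the Schwann cell lineage, so other cells of the nerve are outside its main target. The labels do not give the number of animals behind a library. Values are FPKM (fragment counts divided by the length of the transcript and by library size), which can be compared between genes of 1 library because they are per length.

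Semaphorins are guidance proteins that are secreted or held at the cell surface and mostly act through plexins, receptors whose cytoplasmic part switches off small GTPases of the Ras and Rap families and thereby weakens adhesion and the cytoskeleton. Secreted class 3 semaphorins generally need a neuropilin as the binding part of the receptor, and neuropilins also bind VEGF. In peripheral nerve the family is known from axon growth and repulsion, from vessel patterning and from the contact between Schwann cells and axons.

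With 1 library per genotype there was no replicate and no test, and "higher" and "lower" describe these 2 libraries, not the genotypes. Tsc1 itself was at 2.28 FPKM in the Tsc1cKO library and 3.76 FPKM in the control library. The Schwann cell genes Sox10 (246 FPKM in Tsc1cKO, 212 FPKM in control) and S100b (167 FPKM in Tsc1cKO, 169 FPKM in control) were high in both. Sequencing depth was not given, and the FPKM summed to 492760 in Tsc1cKO and 416853 in control. Differences are Tsc1cKO minus control in log2(FPKM + 1), which understates the change of low genes. The median difference over the 12409 measured genes (those reaching 1 FPKM in either library) was 0.20. A rescaling of Tsc1cKO that set the median log2 ratio of well expressed genes to 0 took away a shift of 0.24, and differences after it are called centred.

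The summed FPKM of the semaphorins was lower in the Tsc1cKO library, and Sema5a was the member that stood lowest against control. Sema4g, Sema6c, Sema6d and the plexin gene Plxnb1 were also at least 2-fold lower. Sema3g, Sema4f and Sema3e were at least 2-fold higher. Plxnd1, the most abundant plexin of both libraries, and Plxnb3 were at similar levels in the 2.

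In numbers, 30 of the 31 genes were measured, and Sema3a, the prototype repellent of sensory axons, was not, at 0.0749 FPKM in Tsc1cKO and 0.0950 FPKM in control. Of the 30, 3 were at least 2-fold higher on the log2(FPKM + 1) scale, where 5.03% of all measured genes were. At least 2-fold lower were 5 of the 30, against 3.06% of all measured genes. After centring 3 members were higher and 7 lower, against 2.86% and 4.65% of all measured genes, the added members being Nrp2 and Plxna3. The median difference of the 30 was −0.19 (−0.38 centred), against 0.20 (−0.01 centred) over all measured genes. A difference below 0 was found for 19 of the 30 (23 centred), and for 33.0% of all measured genes (50.6% centred). Sema3e and Sema4f counted as measured only through Tsc1cKO and Plxna2 only through control. Among the 21 members that reached 5 FPKM in either library, 1 was higher and 5 were lower, against 5.80% and 3.72% of the 8943 genes that reached this level.

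**Figure D1:**
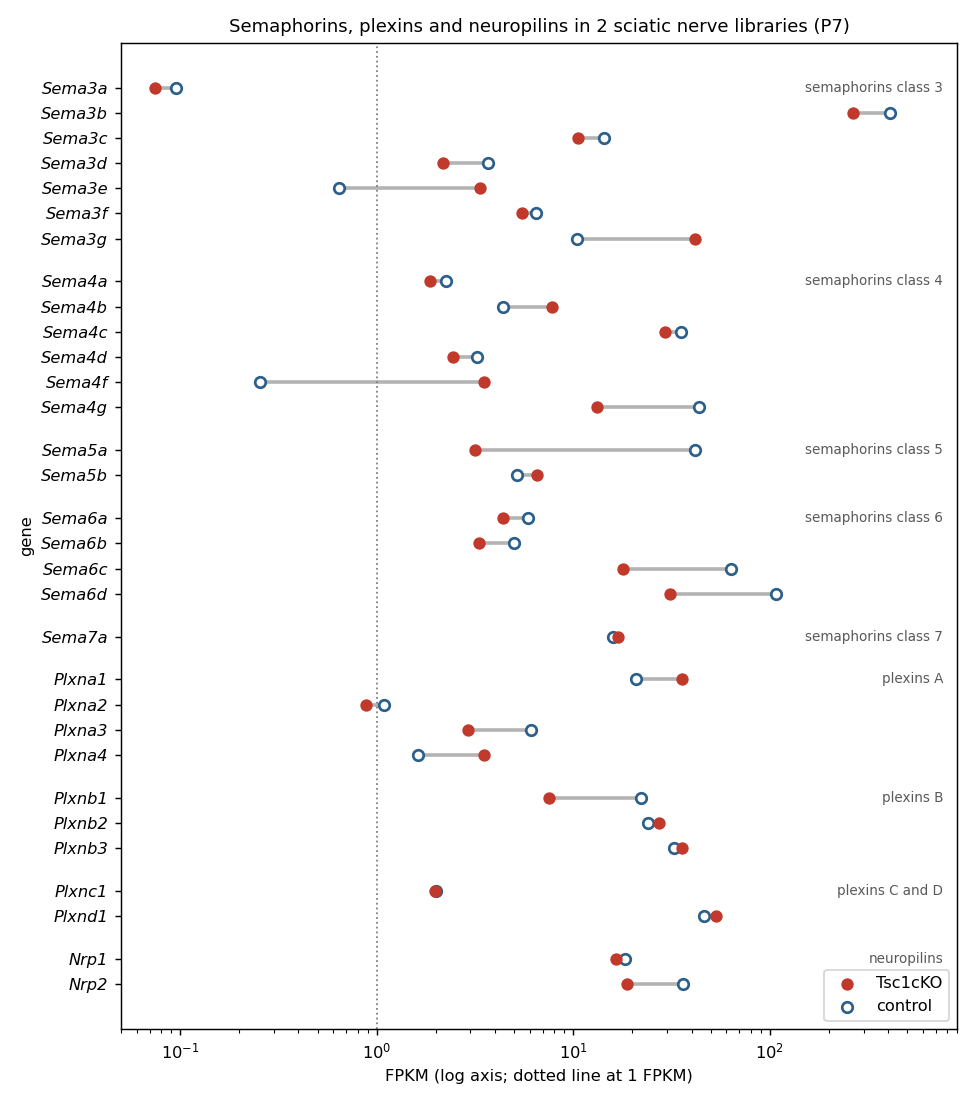
FPKM of the 31 genes on a log axis, ordered by class, with a filled point for the Tsc1cKO library, an open point for the control library and a line joining them. Sema5a, at 3.15 FPKM in Tsc1cKO and 41.8 FPKM in control, has the longest line to the left of its control point, while Sema3b lies far to the right of all others in both libraries.

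**Figure D2:**
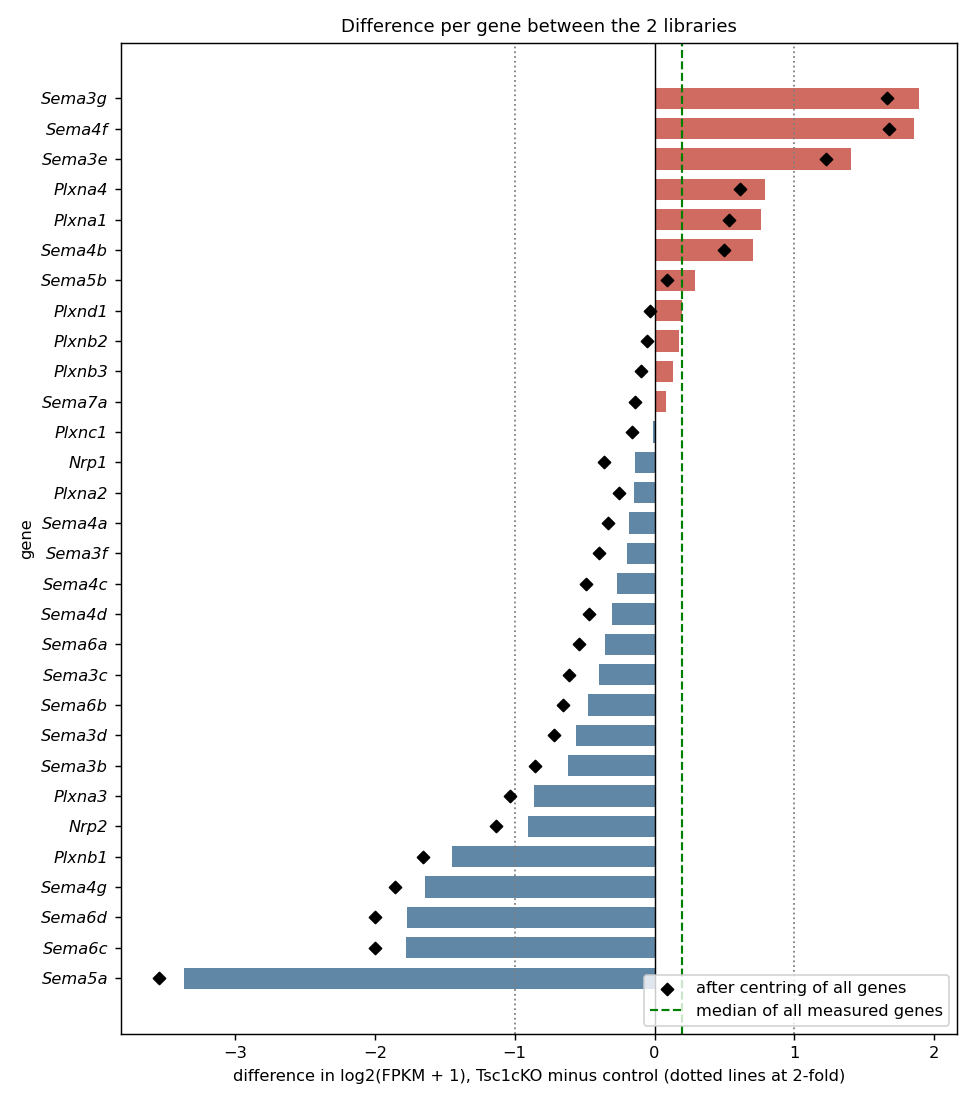
Difference in log2(FPKM + 1), Tsc1cKO minus control, for the 30 measured genes (bars) and the same after centring (diamonds), with dotted lines at 2-fold and a dashed line at 0.20, the median of all measured genes. The 5 lowest bars are Sema5a, Sema6c, Sema6d, Sema4g and Plxnb1, and the 3 highest are Sema3g, Sema4f and Sema3e.

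The 20 semaphorins together held 470 FPKM in Tsc1cKO and 777 FPKM in control, 1.65-fold lower in Tsc1cKO. Sema3b alone made up 56.5% of this sum in Tsc1cKO and 52.5% in control. Without it the other 19 semaphorins summed to 204 FPKM in Tsc1cKO and 369 FPKM in control. The make-up of the remainder differed between the libraries. Behind Sema3b, the order in Tsc1cKO was Sema3g, Sema6d and Sema4c, and in control it was Sema6d, Sema6c and Sema4g. Shares of this kind do not depend on how the libraries are scaled to each other.

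**Figure D3:**
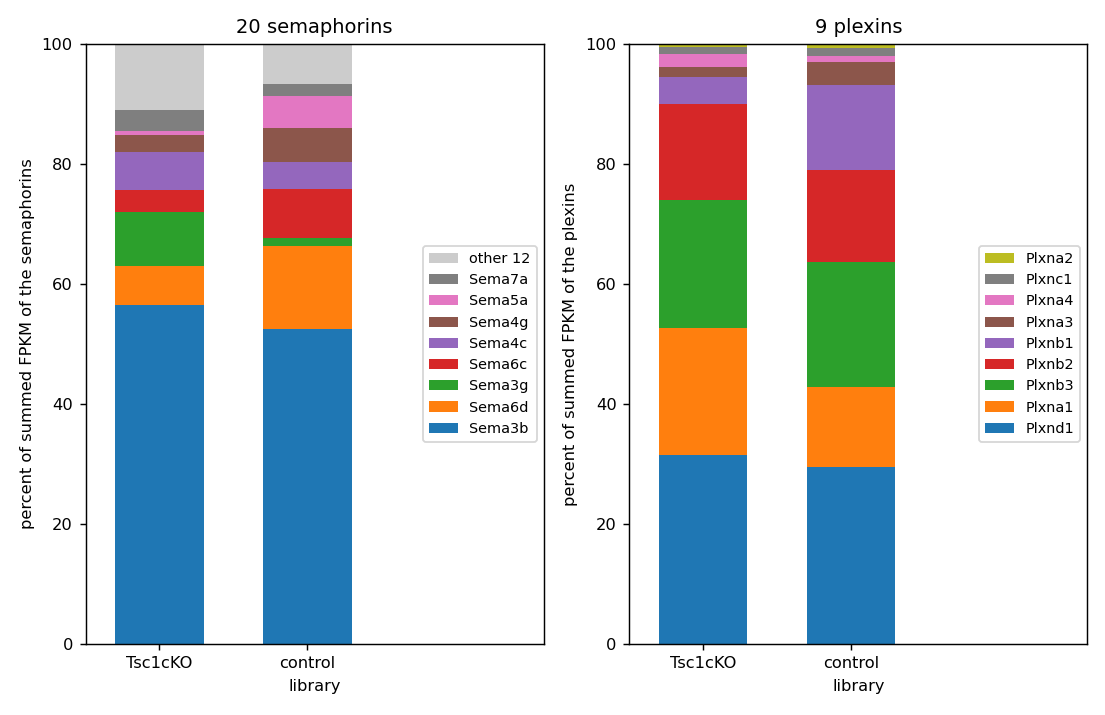
Share of each gene in the summed FPKM of the 20 semaphorins (left panel) and of the 9 plexins (right panel), in percent, with Tsc1cKO as the left bar and control as the right bar of each panel. Sema3g held 8.86% of the semaphorin sum in Tsc1cKO and 1.35% in control, and Plxnb1 held 4.43% of the plexin sum in Tsc1cKO and 14.1% in control.

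Among the secreted class 3 semaphorins, Sema3b, which encodes a neuropilin ligand, was at 265 FPKM in Tsc1cKO and 408 FPKM in control (chromosome 9, 107500446 to 107511572, mm9). Its difference was −0.62 (−0.85 centred), short of 2-fold, and it was the most abundant semaphorin of both libraries. Sema3g, whose product binds Nrp2 and is best known from endothelial cells, was at 41.6 FPKM in Tsc1cKO and 10.5 FPKM in control (chromosome 14, 32031059 to 32042697). This is 3.98-fold higher in Tsc1cKO, a difference of 1.89 (1.66 centred) that stood at position 108 from the top among the 12409 measured genes. The 10 endothelial markers, Cldn5 and Pecam1 among them, summed to 147 FPKM in Tsc1cKO and 176 FPKM in control. All 10 had lower values in Tsc1cKO (10 centred), against 33.0% of all measured genes (50.6% centred). The part of endothelial cells in the values of Sema3g was not tested.

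Sema3e, whose product binds Plxnd1 without a neuropilin and repels growing vessels, was at 3.36 FPKM in Tsc1cKO and 0.643 FPKM in control (chromosome 5, 14025276 to 14256689). Its difference was 1.41 (1.23 centred). Sema3d, a guidance gene of neural crest and vessels, was lower at 2.18 FPKM in Tsc1cKO and 3.70 FPKM in control. Sema3c, which acts in the outflow tract of the heart, was at 10.6 FPKM in Tsc1cKO and 14.3 FPKM in control. Sema3f, the main ligand of Nrp2, was at 5.48 FPKM in Tsc1cKO and 6.44 FPKM in control. None of these last 3 reached 2-fold. Sema3a, Sema3c, Sema3d and Sema3e lie within 4.85 Mb of chromosome 5, so neighbours of the same class stood on both sides of 0.

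Class 4 semaphorins, which are membrane proteins with an immunoglobulin domain, had members at both ends. Sema4f, which in rodent Schwann cells supports contact with axons, was at 3.53 FPKM in Tsc1cKO and 0.254 FPKM in control (chromosome 6, 82861879 to 82889744). The difference was 1.85 (1.67 centred), and the low control value makes a plain ratio uncertain. Sema4g, a ligand of Plxnb2, was at 13.3 FPKM in Tsc1cKO and 43.4 FPKM in control (chromosome 19, 45063834 to 45077885), 3.28-fold lower, with a difference of −1.64 (−1.86 centred). Sema4c, the other ligand of Plxnb2, was at 29.2 FPKM in Tsc1cKO and 35.3 FPKM in control. With Sema4g lower, Sema4c was the most abundant class 4 gene of the Tsc1cKO library, where in control Sema4g was.

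The remaining class 4 genes were low and within 2-fold. Sema4b was at 7.80 FPKM in Tsc1cKO and 4.39 FPKM in control, the one of these with a higher value in Tsc1cKO. Sema4d, also known as CD100 and the ligand of Plxnb1, was at 2.45 FPKM in Tsc1cKO and 3.26 FPKM in control. Sema4a, known from immune cells, was at 1.86 FPKM in Tsc1cKO and 2.25 FPKM in control. The macrophage markers summed to 251 FPKM in Tsc1cKO and 187 FPKM in control. Differences above 0 were found for 7 of 10, near the 67.0% of all measured genes. After centring 4 were above 0 and 6 below, where 50.6% of all measured genes were below. Ptprc, 1 of the 7, counted as measured only through Tsc1cKO. The part of macrophages in the values of the class 4 genes was not tested.

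The 2 class 5 genes, whose products carry thrombospondin repeats that bind proteoglycans, stood apart from each other. Sema5a, which encodes a ligand of Plxnb3, was at 3.15 FPKM in Tsc1cKO and 41.8 FPKM in control (chromosome 15, 32174568 to 32626096). It was 13.3-fold lower in Tsc1cKO, a difference of −3.37 (−3.54 centred), and only 10 of the 12409 measured genes had a lower one. Sema5b was at 6.52 FPKM in Tsc1cKO and 5.14 FPKM in control, a difference of 0.29 (0.09 centred). Sema5a made up 0.669% of the semaphorin sum in Tsc1cKO and 5.38% in control.

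All 4 class 6 semaphorins, transmembrane ligands of A-type plexins, had lower values in Tsc1cKO, and together they were at 56.4 FPKM there and 182 FPKM in control. Sema6d, a ligand of Plxna1, was at 30.9 FPKM in Tsc1cKO and 108 FPKM in control (chromosome 2, 124436032 to 124493506), 3.48-fold lower. The entry covers 57475 bases, where the RefSeq gene of the later build GRCm38.p6 covers 577847, so the value is for the part of the gene within the entry. Sema6c was at 17.8 FPKM in Tsc1cKO and 63.4 FPKM in control (chromosome 3, 94968296 to 94977238), 3.55-fold lower. The 2 differences were nearly equal, at −1.77 for each (−1.99 centred for Sema6d and −2.00 centred for Sema6c). Sema6a, a ligand of Plxna2 and Plxna4, was within 2-fold at 4.40 FPKM in Tsc1cKO and 5.90 FPKM in control. Sema6b, a ligand of Plxna4, was so too, at 3.30 FPKM in Tsc1cKO and 4.997 FPKM in control. Sema7a, which is anchored in the membrane by a lipid and binds integrins and Plxnc1, was at 16.9 FPKM in Tsc1cKO and 15.96 FPKM in control, and its difference of 0.08 turned to −0.14 when centred.

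To show the sequence in front of genes from both ends of the family, promoter windows of 300 bases (250 before the start of transcription and 50 from it) are printed for Sema5a and Sema4g, which were lower in Tsc1cKO, and for Sema3e and Sema4f, which were higher. They are RefSeq sequences of build GRCm38.p6, which differs from the mm9 build of the expression tables, read 5′ to 3′ on the strand of the gene. Positions are chr15:32244563-32244862 (plus strand) for Sema5a, chr19:44989094-44989393 (plus) for Sema4g, chr5:14025026-14025325 (plus) for Sema3e and chr6:82939720-82940019 (minus) for Sema4f. Capitals mark matches on either strand to GCGNGGGCG (letters like those bound by EGR zinc fingers), CACGTG (an E-box) and ACAANG (letters like those bound by SOX proteins). The printed windows are a selection and do not stand for all members past 2-fold. Among those not printed, the lower Plxnb1, Sema6c and Sema6d had ACAANG and no GCGNGGGCG. The higher Sema3g, also not printed, had no match to any of these.
Sema5a: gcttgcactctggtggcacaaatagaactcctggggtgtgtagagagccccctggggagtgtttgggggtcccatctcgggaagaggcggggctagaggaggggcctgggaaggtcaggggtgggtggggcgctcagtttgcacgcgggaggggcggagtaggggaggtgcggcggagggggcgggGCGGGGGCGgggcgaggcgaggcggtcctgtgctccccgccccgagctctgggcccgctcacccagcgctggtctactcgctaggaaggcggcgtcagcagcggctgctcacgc
Sema4g: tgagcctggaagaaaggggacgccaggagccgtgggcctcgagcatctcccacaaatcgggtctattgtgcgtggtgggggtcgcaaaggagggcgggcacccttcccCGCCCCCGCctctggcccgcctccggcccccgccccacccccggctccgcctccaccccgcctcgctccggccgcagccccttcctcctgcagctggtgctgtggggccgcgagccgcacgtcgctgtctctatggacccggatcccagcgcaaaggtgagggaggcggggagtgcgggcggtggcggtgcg
Sema3e: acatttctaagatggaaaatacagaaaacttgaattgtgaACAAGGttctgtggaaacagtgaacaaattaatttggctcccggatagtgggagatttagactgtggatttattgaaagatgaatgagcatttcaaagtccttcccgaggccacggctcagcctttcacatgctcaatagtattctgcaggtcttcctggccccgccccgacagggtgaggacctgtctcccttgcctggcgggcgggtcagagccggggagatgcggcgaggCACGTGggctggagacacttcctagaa
Sema4f: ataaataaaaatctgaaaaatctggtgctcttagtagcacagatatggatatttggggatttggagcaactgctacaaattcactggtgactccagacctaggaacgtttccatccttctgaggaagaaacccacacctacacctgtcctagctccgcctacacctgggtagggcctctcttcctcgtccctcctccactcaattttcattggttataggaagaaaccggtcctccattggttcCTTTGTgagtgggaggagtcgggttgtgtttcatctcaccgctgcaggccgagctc

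By symbol, 26 of the 31 genes had at least 1 window, 37 windows in all, and Sema3b, Sema3f, Sema6a, Plxna1 and Plxna4 had none. GCGNGGGCG stood in 6 of the 37 windows, those of Sema5a, Sema4g, Sema6b, Plxna2, Plxnb2 and Plxnc1, and in 5.55% of the 32851 windows of all genes. By gene this made 0 of the 3 members at least 2-fold higher and 2 of the 5 at least 2-fold lower. CACGTG stood in 3 of the 37 windows, those of Sema3e, Sema4b and Sema6d, against 7.15% of all windows, which made 1 of the 3 higher and 1 of the 5 lower members. ACAANG stood in 15 of the 37 windows, against 41.2% of all windows. It was found for 2 of the 3 higher members (Sema3e and Sema4f) and 3 of the 5 lower members (Plxnb1, Sema6c and Sema6d). Sema6c and Sema6d had 2 windows each, with this match in window 2 and not in window 1. Sema3e and Sema4f counted as measured only through Tsc1cKO. GGGCGG, the GC box, stood in 27 of the 37 windows, against 35.7% of all windows, and for 2 of the 3 higher and 5 of the 5 lower members. TATAAA stood in 0 of the 37, against 13.6%. Counts by gene take a match in any window of the gene, so the shares over all windows are not a background for them. No share by gene was computed over all genes. EGR and GC box letters can overlap. Such matches describe letters and show no binding.

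The 9 plexins together were at 169 FPKM in Tsc1cKO and 157 FPKM in control, so the receptor sum was 1.08-fold higher in Tsc1cKO where the semaphorin sum was lower. After centring the plexin sum was also lower in Tsc1cKO, by 0.13 on the log2 scale. Plxnd1, the receptor of Sema3e and a gene of vessel patterning, led in both libraries at 53.2 FPKM in Tsc1cKO and 46.2 FPKM in control. Plxnb3, the receptor of Sema5a, was at 35.8 FPKM in Tsc1cKO and 32.6 FPKM in control. Their differences, 0.20 for Plxnd1 (−0.03 centred) and 0.13 for Plxnb3 (−0.10 centred), were smaller than those of their ligands, and the sign of both turned when centred.

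Plxnb1, the receptor of Sema4d, was the one plexin at least 2-fold different before centring, at 7.48 FPKM in Tsc1cKO and 22.1 FPKM in control (chromosome 9, 108997950 to 109022429). It was 2.96-fold lower, a difference of −1.45 (−1.65 centred). Plxnb2, the receptor of Sema4c and Sema4g, was at 27.3 FPKM in Tsc1cKO and 24.0 FPKM in control, a difference of 0.17 (−0.05 centred). In order of abundance each of the 3 B-type plexins stood 1 place lower in Tsc1cKO than in control, because Plxna1 stood above them there. Of the plexin sum, Plxnb2 held 16.1% in Tsc1cKO and 15.4% in control. Plxnb3 held 21.2% in Tsc1cKO and 20.8% in control, so only the share of Plxnb1 was lower.

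Of the A-type plexins, which signal for class 3 semaphorins with a neuropilin and for class 6 semaphorins directly, Plxna1 was at 35.9 FPKM in Tsc1cKO and 20.8 FPKM in control. It was 1.73-fold higher, and it was the second most abundant plexin in Tsc1cKO and the fifth in control. Plxna4 was at 3.53 FPKM in Tsc1cKO and 1.62 FPKM in control, and its difference of 0.79 stayed under 2-fold on the log2(FPKM + 1) scale although the plain ratio was 2.18. Plxna3 was at 2.90 FPKM in Tsc1cKO and 6.10 FPKM in control, a difference of −0.86 that passed 2-fold when centred, at −1.04. Plxna2 was at 0.886 FPKM in Tsc1cKO and 1.09 FPKM in control, and Plxnc1, the receptor of Sema7a, at 1.98 FPKM in Tsc1cKO and 1.99 FPKM in control.

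Both neuropilins had lower values in Tsc1cKO, 35.4 FPKM together against 54.5 FPKM in control. Nrp2, the co-receptor of Sema3f and Sema3g, was at 18.8 FPKM in Tsc1cKO and 36.2 FPKM in control, 1.92-fold lower. Its difference of −0.91 lay just under 2-fold as deposited and past it when centred, at −1.13. Nrp1, the co-receptor of Sema3a and of VEGF, was at 16.5 FPKM in Tsc1cKO and 18.3 FPKM in control, within 2-fold under both scalings. The span of Nrp1 contains the entry of a microRNA gene, so its value is less certain. Nrp2 held 53.3% of the neuropilin sum in Tsc1cKO and 66.4% in control.

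**Figure D4:**
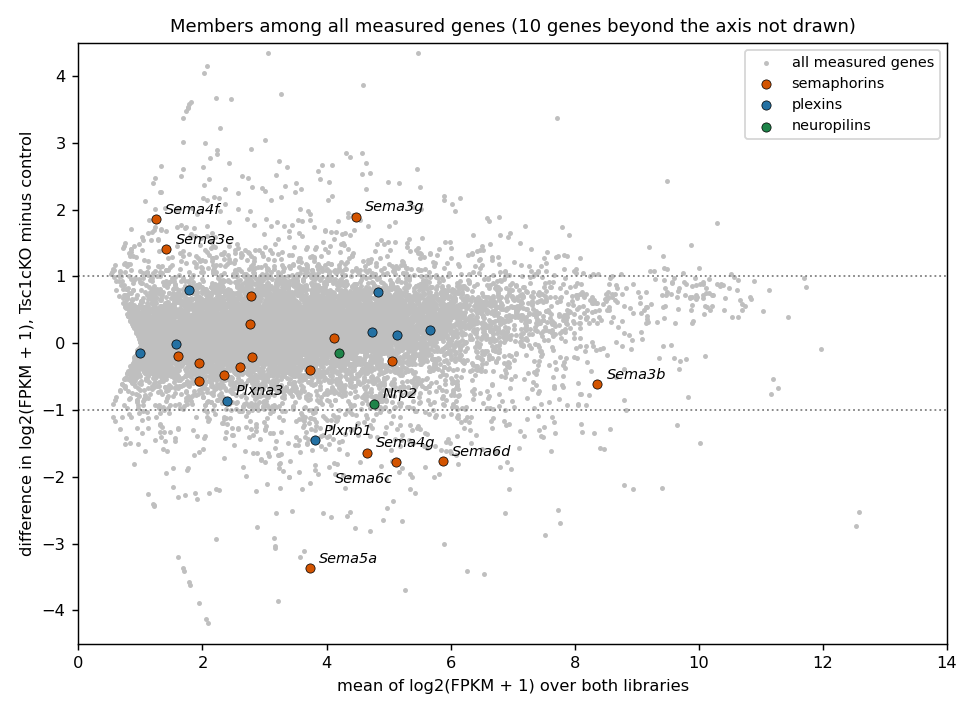
Difference in log2(FPKM + 1), Tsc1cKO minus control, against the mean of log2(FPKM + 1) over both libraries, with the 12409 measured genes in grey and semaphorins, plexins and neuropilins in colour. Sema5a lies near the lower edge of the cloud at −3.37, and Sema3e and Sema4f lie at its low-expression end.

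Genes that work with these ligands and receptors were read from 3 lists. Of 20 listed partner receptors and adaptors 18 were measured, with 3 at least 2-fold higher and 0 lower (3 and 2 centred). Over all measured genes 5.03% were higher and 3.06% lower (2.86% and 4.65% centred). The median difference of the list was 0.19 (−0.01 centred), close to that of all measured genes, 0.20 (−0.01 centred). Cd44, the hyaluronan receptor, was at 56.3 FPKM in Tsc1cKO and 8.92 FPKM in control. Met, the receptor of hepatocyte growth factor and a partner of Plxnb1, was at 14.4 FPKM in Tsc1cKO and 3.27 FPKM in control. Met was thus 4.41-fold higher in the library in which Plxnb1 was lower. Chl1, an adhesion protein that pairs with Nrp1, was at 15.04 FPKM in Tsc1cKO and 4.42 FPKM in control. Ret, a receptor of the GDNF family, was at 0.751 FPKM in Tsc1cKO and 2.43 FPKM in control. It was 1 of the 2 genes lower after centring and counted as measured only through control, where it was high. The integrin gene Itgb1, the most abundant, was at 207 FPKM in Tsc1cKO and 192 FPKM in control.

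The cytoplasmic effectors showed mostly small differences. Of 31 listed 29 were measured, with 2 at least 2-fold higher and 2 lower (1 and 2 centred). The shares over all measured genes were 5.03% and 3.06% (2.86% and 4.65% centred). The median of the list was 0.11 (−0.11 centred). Mras, which encodes a Ras family GTPase that plexins can inactivate, was at 19.6 FPKM in Tsc1cKO and 82.1 FPKM in control, 4.18-fold lower. Rnd3 and Rnd2 encode GTPases of the Rnd family, which binds plexins, and were higher. Rnd3 was at 53.1 FPKM in Tsc1cKO and 17.9 FPKM in control. Rnd2 was at 42.1 FPKM in Tsc1cKO and 20.1 FPKM in control, and fell short of 2-fold when centred. Dpysl5, which encodes a collapsin response mediator protein, was at 0.625 FPKM in Tsc1cKO and 2.80 FPKM in control. It was 1 of the 2 lower genes and counted as measured only through control, where it was high. Cfl1, the actin severing factor cofilin, was at 1249 FPKM in Tsc1cKO and 788 FPKM in control.

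Of the 8 proteases that cut semaphorins or neuropilins, 1 was at least 2-fold higher and 1 lower before centring, against 0 and 2 after it. Over all measured genes the shares were 5.03% and 3.06% before centring, and 2.86% and 4.65% after it. The median difference of the proteases was 0.34 (0.12 centred). Adam10, a sheddase, was at 64.4 FPKM in Tsc1cKO and 156 FPKM in control. Furin, the convertase that processes class 3 semaphorins, was at 48.4 FPKM in Tsc1cKO and 23.1 FPKM in control, a difference of 1.04 (0.81 centred). Pcsk5 was at 6.16 FPKM in Tsc1cKO and 12.3 FPKM in control, Pcsk6 at 12.6 FPKM in Tsc1cKO and 20.5 FPKM in control, and the membrane protease gene Mmp14, the most abundant, at 178 FPKM in Tsc1cKO and 131 FPKM in control.

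**Figure D5:**
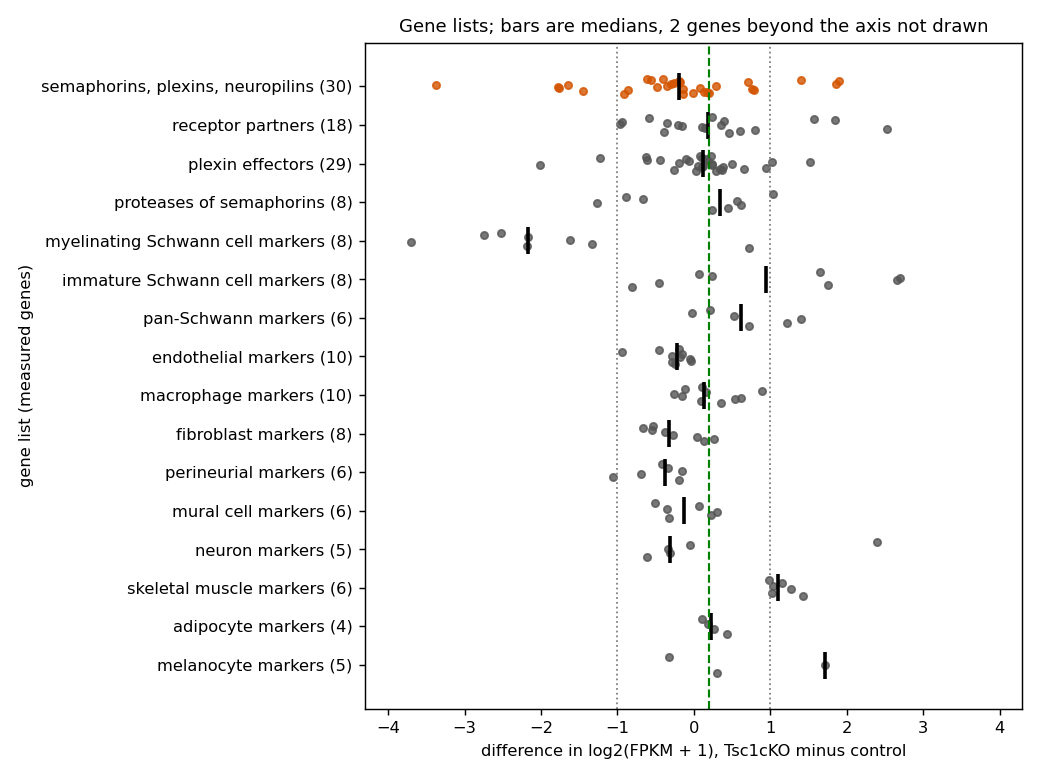
Difference in log2(FPKM + 1), Tsc1cKO minus control, for each measured gene (points) of the guidance family, the 3 lists of partners and the 12 lists of cell type markers, with a bar at each median and a dashed line at 0.20, the median of all measured genes. Myelinating Schwann cell markers have the lowest median at −2.17, and the guidance genes spread on both sides of 0 around −0.19.

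Whole nerve mixes cell types, and in such a library fewer cells of a type and less RNA per cell cannot be told apart. Markers of myelinating Schwann cells had the lowest median difference of the 12 marker lists, at −2.17. Of 8 measured markers 7 were at least 2-fold lower, Pmp22 and Mbp among them, against 3.06% of all measured genes. The list summed to 6602 FPKM in Tsc1cKO and 34047 FPKM in control. Markers of immature Schwann cells summed to 636 FPKM in Tsc1cKO and 206 FPKM in control, most of it from Pou3f1 and Ngfr. The list was mixed, with 4 of 8 at least 2-fold higher, Sox2 and Ngfr among them, against 5.03% of all measured genes. Below 0 were 2 of the 8 (3 centred), against 33.0% of all measured genes (50.6% centred). These 2 were Gfap (2.05 FPKM in Tsc1cKO, 4.34 FPKM in control) and Cdh2 (4.75 FPKM in Tsc1cKO, 6.90 FPKM in control). Skeletal muscle markers, among them Acta1 and Mylpf, summed to 678 FPKM in Tsc1cKO and 312 FPKM in control. Their differences were above 0 for 6 of 6 measured genes, against 67.0% of all measured genes. At least 2-fold higher were 5 of the 6 (2 centred), against 5.03% of all measured genes (2.86% centred). The part of the Schwann cell and muscle lists in the differences of the guidance genes was not tested.

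Fibroblast markers summed to 4998 FPKM in Tsc1cKO and 7285 FPKM in control, most of it from Col1a1 and Col1a2. Of the 8, 3 were above 0 and 5 below (1 and 7 centred), with 0 past 2-fold. Over all measured genes 67.0% were above 0 and 33.0% below (50.6% below when centred). Perineurial markers summed to 112 FPKM in Tsc1cKO and 143 FPKM in control. Mural cell markers summed to 126 FPKM in Tsc1cKO and 136 FPKM in control, with 3 above 0 and 3 below (2 and 4 centred). Adipocyte markers summed to 302 FPKM in Tsc1cKO and 228 FPKM in control. Of 11 neuron markers 5 were measured, with 1 difference above 0 and 4 below 0 and a median of −0.31. Rbfox3, Snap25 and Syt1 were below 1 FPKM in both libraries, Rbfox3 at 0 in Tsc1cKO. Nefm counted as measured only through control. Tubb3 was at 25.2 FPKM in Tsc1cKO and 3.99 FPKM in control. The other 4 were within 2-fold on the log2(FPKM + 1) scale, Stmn2 at 2.66 FPKM in Tsc1cKO and 2.79 FPKM in control, Prph at 2.73 FPKM in Tsc1cKO and 3.70 FPKM in control, Nefl at 1.79 FPKM in Tsc1cKO and 2.45 FPKM in control, and Nefm at 0.636 FPKM in Tsc1cKO and 1.498 FPKM in control. The melanocyte list summed to 1167 FPKM in Tsc1cKO and 17.3 FPKM in control. Against 5.03% of all measured genes, 3 of its 5 measured genes were at least 2-fold higher. These were Tyrp1 (802 FPKM in Tsc1cKO, 0.361 FPKM in control), Pmel (354 FPKM in Tsc1cKO, 8.95 FPKM in control) and Dct (4.98 FPKM in Tsc1cKO, 0.818 FPKM in control). The Pmel entry overlaps that of Dgka, so its value is less certain. Tyrp1 and Dct counted as measured only through Tsc1cKO, the library where they were high. The 1 measured gene of the list below 0 was Mitf, at 4.38 FPKM in Tsc1cKO and 5.72 FPKM in control. Tyr and Mlana were at or near 0 in both libraries. The part of these lists in the differences of the guidance genes was not tested. Pan-Schwann markers summed to 1610 FPKM in Tsc1cKO and 1071 FPKM in control.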

How the data were processed

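Total RNA from sciatic nerve was made into libraries with an Illumina TruSeq kit, per the labels' protocols. The authors deposited 1 table of FPKM per library, per the file headers, and CASAVA, TopHat, Cufflinks and build mm9 are named without versions in the submitters' processing notes. The labels and headers used here state no tool roles, annotation, strand use or depth, so no counting interval was computed. FPKM were summed per symbol, 3 symbols with a failed estimate in control were left out, and all 31 members stood on 1 entry each. Spans were taken from the tables with 1 added to the start, because 7619 spans then equal RefSeq gene lengths. Genes reaching 1 FPKM in either library were called measured. Differences used log2(FPKM + 1), with a pseudocount of 1, and a rule of at least 2-fold. Centring divided Tsc1cKO by 1.18, the median ratio of the 7844 genes that reached 5 FPKM in each library. With 1 library per group no test was made. Alternatives were pseudocounts of 0.1 and 5, no filter or 5 FPKM, 3 scalings, thresholds of 1.5-fold and 3-fold and removal of symbols on several entries. All members are named. From each partner list the 4 largest differences and the most abundant gene are named, and from marker lists examples by abundance or at 0. Pecam1, Ptprc, Gfap, Cdh2, Syt1, Snap25, Tyr, Dct, Nefl and Nefm were chosen after their values were seen. Members and lists were chosen with earlier results of these data known. The promoter motifs were chosen after the expression values were seen. Calculations used Python 3.11.15, pandas 2.3.3 and numpy 2.4.6 and were checked on simulated data.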

Additional observations from a re-analysis of the deposited data

How the results depend on the processing

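The 5 members at least 2-fold lower and Sema3g passed 2-fold under every pseudocount, filter and scaling tried. Sema3e and Sema4f did not with a pseudocount of 5 (0.57 and 0.70), and with a filter of 5 FPKM they were no longer counted, so 1 member was higher under either setting. Over all genes counted, 2.28% were higher with that pseudocount and 5.80% with that filter. A threshold of 1.5-fold gave 6 higher and 8 lower of 30, where 17.8% and 7.53% of all measured genes were, so the higher count was near the background. One of 3-fold gave 2 higher and 4 lower, against 1.39% and 1.08% of all measured genes. Scaling by the median, the upper quartile or a trimmed mean gave 3 higher and 7 lower. Of all genes measured after each scaling, 2.89%, 3.17% and 3.14% were higher and 4.69%, 4.35% and 4.36% lower. In that order of scalings the median difference of the members was −0.38, −0.34 and −0.34, the log2 ratio of the semaphorin sums −0.96, −0.91 and −0.92 (−0.73 as deposited) and that of the plexin sums −0.126, −0.0785 and −0.0823 (0.110 as deposited). The medians of the partner receptors were −0.00812, 0.0315 and 0.0283, and 0.31 with the filter of 5 FPKM. Those of the effectors were −0.109, −0.0653 and −0.0687, and those of the proteases 0.12, 0.16 and 0.16. The sign of Sema7a, Plxnb2 and Plxnb3 turned under all 3 scalings and that of Plxnd1 under the median scaling. With pseudocount 0.1 Plxna3 and Plxna4 also passed 2-fold, giving 4 higher and 6 lower, against 7.48% and 4.40% of all measured genes. No paired analysis was possible because each genotype had 1 library. Low members, such as Sema3a, Sema4f and Plxna2, have the least certain values, and no interval for an FPKM value was used here.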
